A study of Homo sapiens with 24 samples.

Results

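ATP-binding cassette (ABC) genes encode a family of membrane transporters, together with a few soluble relatives that act on ribosomes. The 45 members described here are the protein-coding genes of the count table whose GENCODE symbol is ABC, a letter from A to G and a number, out of 57736 genes in all. The rule used names only and no measured value, but it was chosen with earlier results of these data known. RNA-seq was performed on U87-T cells, a human glioblastoma line that carries a TERT transgene, and on DAXX_KO and ATRX_KO cells derived from it. The labels give 8 groups of 3 libraries: DAXX WT and DAXX_KO, each as untreated control and with etoposide, and the same 4 combinations for ATRX with WT libraries of its own. Etoposide is an inhibitor of topoisomerase that causes DNA breaks. DAXX and ATRX form a complex that deposits histone H3.3, and the study compared how cells lacking either partner express genes before and after DNA damage. Per the study's text, each KO line is a clone that survived continued passage and acquired features resembling the alternative lengthening of telomeres, and the WT cells are U87-T cells with an empty Cas9 vector. A difference between KO and WT is therefore a difference between 1 clone and its parental line, and the loss of the gene cannot be told apart from other traits of that clone. The dose and duration of etoposide for the RNA-seq samples were not given in the sources used here. The labels call the replicates separate samples without saying whether they are separate cultures, so the tests measure the spread between libraries, which may be technical.

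ABC transporters use the energy of ATP to move lipids, drugs, peptides, metals and conjugates across membranes. A full transporter has a pair of membrane domains and a pair of ATP-binding domains in 1 protein, whereas a smaller one must join with a partner. ABCB1 (P-glycoprotein), ABCG2 (breast cancer resistance protein) and ABCC1 and ABCC3 (multidrug resistance proteins) export many anticancer drugs from cells, and etoposide is a known substrate of several of them. In glioma and at the blood-brain barrier, ABCB1 and ABCG2 are best known for limiting the entry of drugs into brain and tumor. ABCE1 and the F subfamily lack membrane domains and work in ribosome recycling and translation.

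The libraries held between 6928950 and 13298557 counts. DAXX mRNA was between 32.9 and 35.3 CPM (read counts scaled by TMM library size) in WT controls and between 4.62 and 6.62 CPM in DAXX_KO controls. ATRX mRNA was between 187 and 196 CPM in WT controls of the ATRX series and between 76.1 and 87.5 CPM in ATRX_KO. The titles and a genotype entry of the labels disagree on which gene the DAXX_KO cells lack. DAXX was lower and ATRX was higher in them than in WT (log2 fold change 0.76, FDR 2.35e-08), and the titles were followed. VIM was at 1193 to 5981 CPM in the 24 libraries, whereas GFAP, the astrocyte filament, did not exceed 6 counts in any of them. Of 3 immune markers, AIF1 stayed at or below 3 counts and PTPRC at or below 17 counts in every library, while CD68, a lysosomal protein also made by other cells, was at 17.8 to 41.9 CPM. The summed level of 4 epithelial markers was 26.0 to 32.2 CPM in WT controls of the DAXX series and 4.33 to 7.75 CPM in DAXX_KO controls, carried by KRT8 and KRT18. In the ATRX series it was 29.3 to 34.2 CPM in WT controls and 18.5 to 25.1 CPM in ATRX_KO controls. The sum of 3 neuronal markers, of which TUBB3 was lower in both KO lines (log2 −0.83 and −0.83, FDR 7.6e-09 and 7.52e-08), was 452 to 498 CPM in WT and 261 to 288 CPM in DAXX_KO controls, and 642 to 677 CPM in WT and 366 to 381 CPM in ATRX_KO controls. Of the glioma markers, 1 was higher and 4 lower of 5 tested in DAXX_KO controls, and all 6 tested were lower in ATRX_KO controls. Of all genes tested, 53.4% were called in DAXX_KO controls (26.7% higher and 26.6% lower) and 41.8% in ATRX_KO controls (20.8% higher and 21.0% lower). The part of these marker differences in the results on the KO lines was not tested. In bulk samples, a change in the number of cells that express a gene and a change in RNA per cell cannot be told apart.

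Of the 45 members, 31 had enough counts to be tested in the DAXX series, 32 in the ATRX series and 30 in both. ABCA4 and ABCC2 were tested in the ATRX series alone, and ABCC6 in the DAXX series alone. The 12 members tested in neither series were ABCA6, ABCA8 and ABCA10 (lipid transporters of a gene cluster on chromosome 17), ABCB1, ABCB11 (the bile salt export pump of liver), ABCC8 (the sulfonylurea receptor of pancreatic beta cells), ABCC11, ABCC12, ABCD2 (a peroxisomal fatty acid transporter), and ABCG4, ABCG5 and ABCG8 (sterol transporters). None of these 12 exceeded 7 counts in any library, and ABCG5 had 3 counts in all 24 libraries together. A floor of 3 counts corresponded to 0.217 to 0.405 CPM per library, and levels below it were not distinguishable from 0 at this depth. The filter kept a gene that was high in a single group, and 7 of the 31 members tested in the DAXX series and 8 of the 32 in the ATRX series had at least 1 group under 10 counts in every library. These were ABCA7, ABCA12, ABCA13, ABCB4 and ABCG2 in both series, ABCB5 and ABCC6 in the DAXX series, and ABCA3, ABCA4 and ABCC2 in the ATRX series. For such a member a difference between groups was in part required by the filter, and its FDR below is subject to that limit. The counts below therefore describe the tested members and do not stand for the whole family.

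In DAXX_KO control cells ABCG2, ABCC6 and ABCA1 had the largest increases over WT and ABCB4, ABCC9 and ABCC4 the largest decreases. Values after ± are standard errors of the fitted log2 fold change, with n = 3 libraries in each group, and the FDR is the Benjamini-Hochberg adjusted p over all genes tested. In these control cells, 18 of the 31 tested members were called at an FDR of 0.05 by edgeR's quasi-likelihood test, 11 higher and 7 lower, against 53.4% of all genes tested (26.7% higher and 26.6% lower). The median log2 fold change was 0.16 over these members and 0.02 over all genes tested. With libraries scaled by their totals alone, 13 members were higher and 3 lower, and the median of all genes tested shifted to 0.20. In etoposide-treated cells, 18 of 31 were called, 11 higher and 7 lower, against 53.0% of all genes (27.9% higher and 25.2% lower), with a median of 0.17 over the members and 0.01 over all genes. A share of members near that of all genes describes a comparison in which most of the transcriptome moved, and is not a result about the family.

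In ATRX_KO control cells, 13 of 32 tested members were called, 8 higher and 5 lower, against 41.8% of all genes (20.8% higher and 21.0% lower). The median was 0.25 over the members and 0.02 over all genes. ABCA4, ABCA1 and ABCA13 had the largest increases and ABCB4, ABCB6 and ABCC4 the largest decreases. In etoposide-treated cells, 15 of 32 were called, 6 higher and 9 lower, against 45.9% of all genes (23.0% higher and 22.9% lower), and scaling by library totals gave 8 higher and 7 lower with a median of all genes of 0.11. The series share no libraries, and WT levels of some members differed between them. In control cells of the DAXX and ATRX series, WT means were 10.7 and 14.7 CPM for ABCC3 and 10.3 and 14.8 CPM for ABCB6. Each KO effect is relative to the WT of its own series, and the cause of the WT differences was not tested. Among 30 members tested in both series, 9 were called in both KO lines in control cells, which is 9 of the 17 called in DAXX_KO and 9 of the 12 called in ATRX_KO. Over all 15039 genes tested in both series, 29.2% were called in both KO lines in control cells and 23.4% in the same direction. ABCA1, ABCB8 and ABCB9 were higher in both, ABCB4, ABCC4 and ABCE1 were lower in both, and ABCB6, ABCC3 and ABCF1 went in opposite directions.

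**Figure D1:**
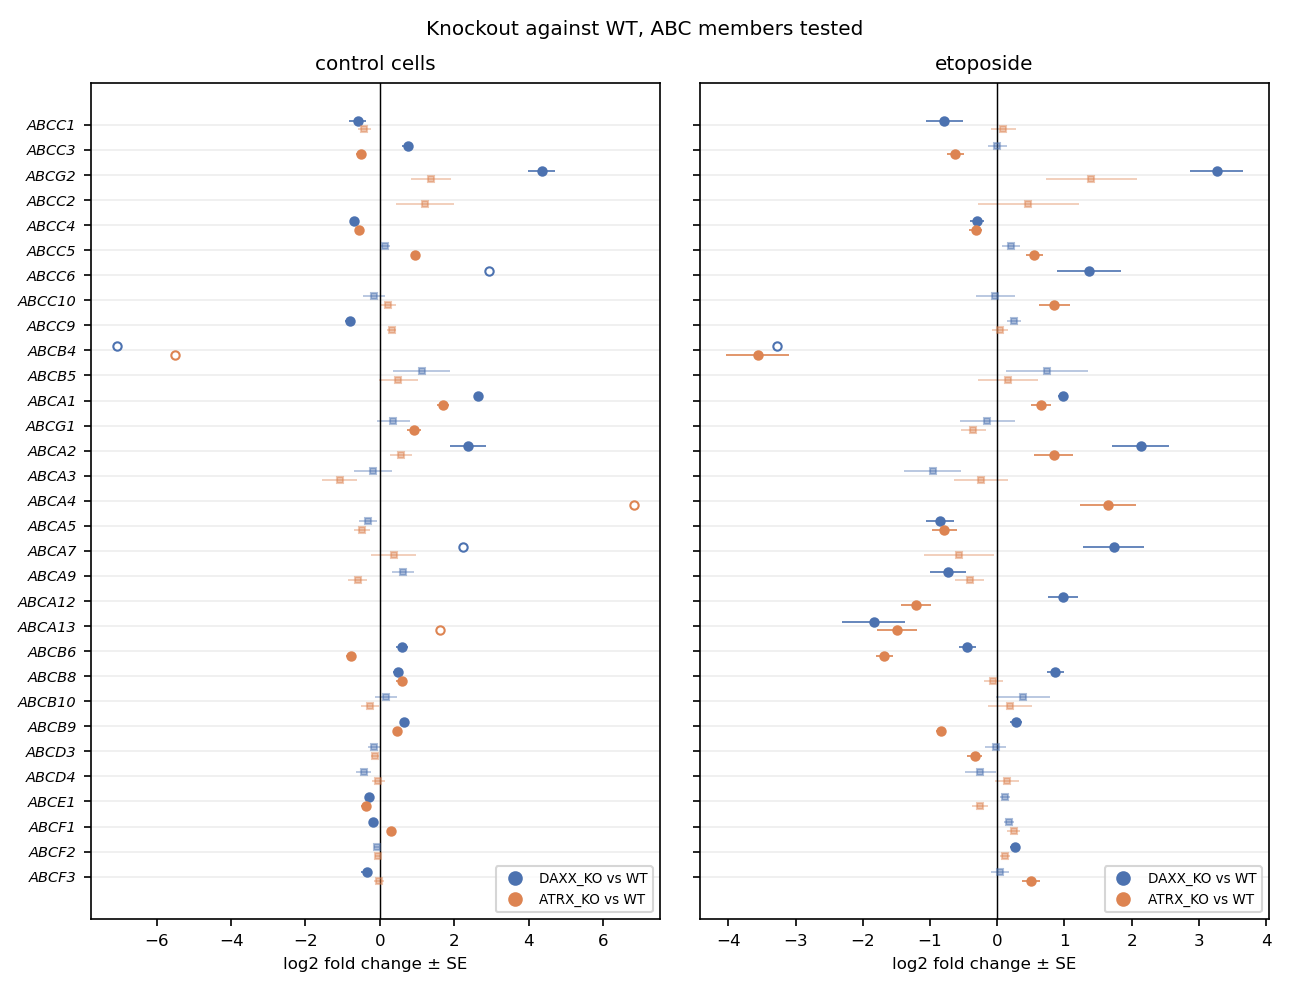
Log2 fold change of KO against WT (x axis) for tested members (y axis, ordered by role), in control cells (left) and with etoposide (right), for the DAXX series (blue) and the ATRX series (orange). Circles passed an FDR of 0.05, pale squares did not, bars are SE, and open symbols mark comparisons with a group at or under 3 counts in every library, whose fitted value depends on the model, while comparisons with both groups at that level are not drawn. ABCG2 in DAXX_KO lies far to the right in both panels at 4.34 and 3.26, and ABCB4 far to the left in both KO lines.

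Etoposide moved many members in the same direction in both WT cell sets. In WT of the DAXX series, 19 of 31 were called, 12 higher and 7 lower, against 60.2% of all genes (29.6% higher and 30.6% lower). In WT of the ATRX series, 17 of 32 were called, 11 higher and 6 lower, against 61.5% (31.7% higher and 29.8% lower). Of the members tested in both series, 14 were called in both WT sets, out of 18 and 16 respectively, all in the same direction. Over all genes tested in both series, 51.5% were called in both WT sets and 51.3% in the same direction, so the shared direction is no result about the family. ABCA1, ABCA5, ABCA9, ABCA12, ABCA13, ABCB6, ABCB9, ABCC3 and ABCC9 rose in both, and ABCB10, ABCC1, ABCC4, ABCD4 and ABCE1 fell in both. In DAXX_KO, 17 of 31 were called, 10 higher and 7 lower, against 54.5% of all genes (26.8% higher and 27.8% lower), and in ATRX_KO 15 of 32, 9 higher and 6 lower, against 49.5% (24.3% higher and 25.2% lower). Scaling by library totals gave 10 higher and 3 lower in ATRX_KO, and RLE size factors gave 9 higher and 3 lower. ABCA12, ABCA13, ABCB9, ABCC9 and ABCF3 rose and ABCB10, ABCC4 and ABCE1 fell in both KO lines, 8 of 30 members against 38.0% of all genes called in the same direction in both. The medians over the members were 0.59 and 0.34 in WT of the DAXX and ATRX series and 0.26 and 0.14 in DAXX_KO and ATRX_KO, against 0.02, 0.07, 0.00 and 0.03 over all genes.

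**Figure D2:**
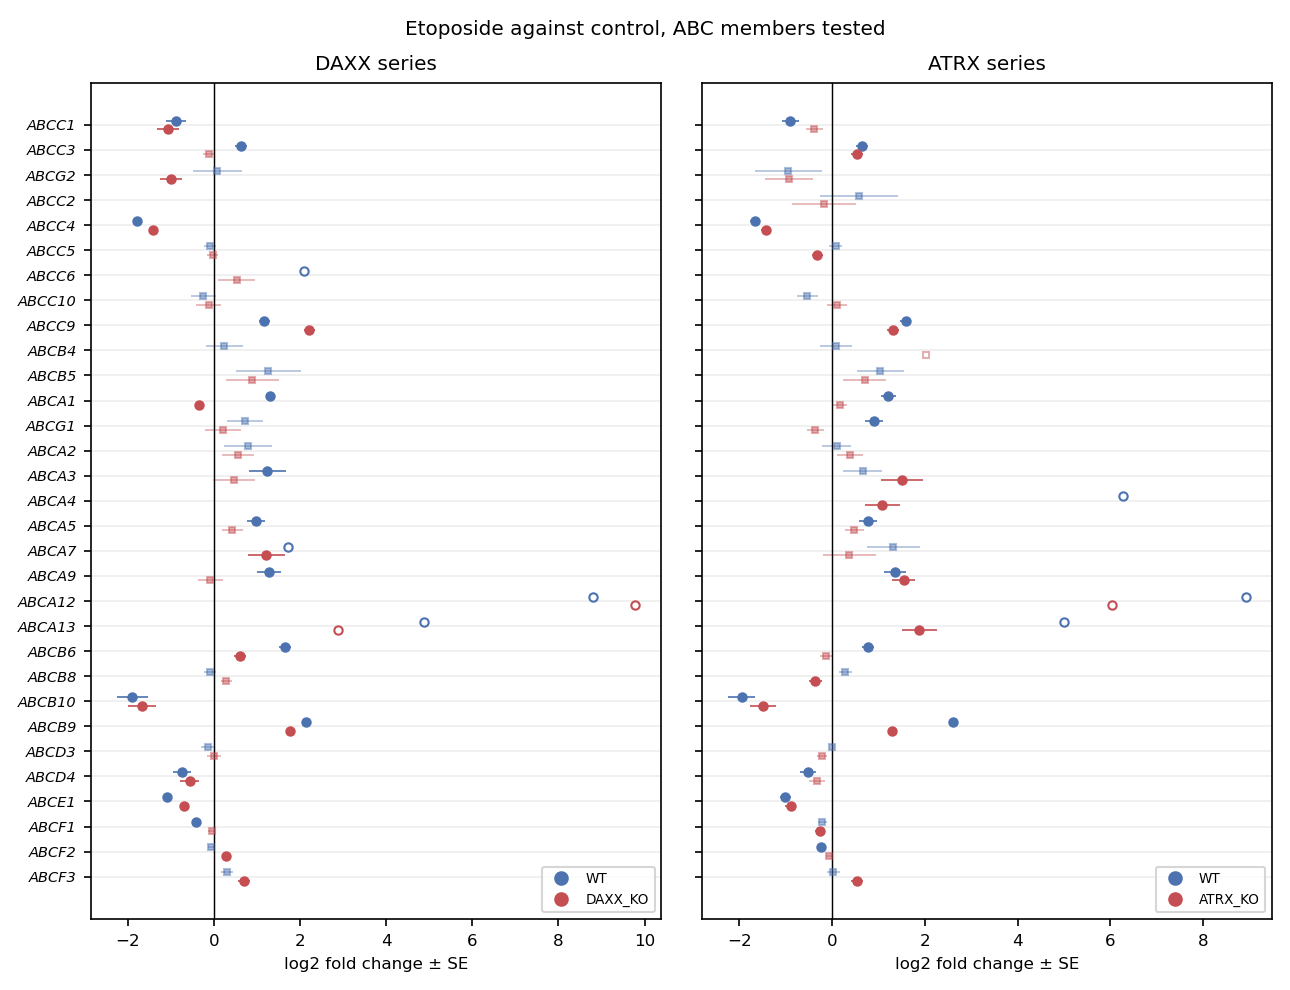
Log2 fold change of etoposide against control (x axis) for tested members (y axis, ordered by role), in the DAXX series (left) and the ATRX series (right), for WT (blue) and KO cells (red). Circles passed an FDR of 0.05, pale squares did not, bars are SE, open symbols mark comparisons with a group at or under 3 counts in every library, and a comparison with both groups at that level is not drawn. ABCB9 and ABCC9 lie to the right and ABCB10 and ABCC4 to the left for all 4 cell sets, and ABCA1 separates WT from KO in both panels.

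An interaction term tested whether the response to etoposide differed between KO and WT. Here higher and lower refer to the signed log2 response, so that a smaller fall in KO counts as higher. In the DAXX series 9 of 31 members were called, 5 with a higher and 4 with a lower response in DAXX_KO, against 14.2% of all genes (8.38% higher and 5.79% lower). Scaling by library totals gave 2 higher and 5 lower. In the ATRX series 7 of 32 were called, all with a lower response in ATRX_KO, against 16.0% of all genes (8.36% higher and 7.64% lower). These were ABCA1, ABCA4, ABCA13, ABCB6, ABCB8, ABCB9 and ABCG1. With all 24 libraries in 1 model, 1 member had a higher and 8 a lower response in ATRX_KO. ABCA1 and ABCB6 were called with a lower response in both series, as were 2.42% of all genes. The effects of the KO lines were compared in a model of all 24 libraries, with 33 members tested. In control cells the DAXX_KO effect was higher for 7 and lower for 3 members, against 34.1% of all genes (17.0% higher and 17.2% lower). With etoposide it was higher for 7 and lower for none, against 34.5% of all genes (17.7% higher and 16.8% lower). Some other settings called ABCC1 or ABCF3 lower. ABCC1 was at −0.89 (FDR 0.0542), and was called by the DESeq2 Wald test (−0.90, adjusted p = 0.0311), without a filter on low counts (−0.87, FDR 0.00525) and with at least 10 counts in every library (−0.89, FDR 0.0427), and without DAXX_KO etoposide replicate 2 it was −1.51. ABCF3 was at −0.48 (FDR 0.0508), and was called with RLE size factors (FDR 0.0489), library totals (FDR 0.0469) and at least 10 counts in every library (FDR 0.0433). The interactions differed for 4 members, ABCB8, ABCB9 and ABCC9 among them, each higher in DAXX_KO, against 3.00% of all genes (1.92% higher and 1.08% lower). With at least 10 counts in every library, 4 members were higher and ABCA9 was lower (−1.59, FDR 0.0477). Library totals and the replicate block each called 3 members, all higher.

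Of the 4 drug efflux members, ABCG2 was higher in DAXX_KO, ABCC3 moved in opposite directions in the 2 KO lines, ABCC1 was lower with etoposide in WT and DAXX_KO cells, and ABCB1 was near 0. ABCB1 (chr7:87132333-87342639 of GRCh37, minus strand) overlaps RUNDC3B on the opposite strand. Its level in WT of the DAXX series was 0.0991, 0 and 0.24 CPM in control libraries and 0.878, 0.357 and 0.27 CPM with etoposide. DAXX_KO held 0 counts in all control libraries and 0, 0.207 and 0 CPM with etoposide. In the ATRX series the highest library was at 0.478 CPM. Over the 3 WT libraries of the DAXX series, etoposide gave 12 counts and control 3, a ratio of 4.56 with a 95% counting interval of 1.23 to 25.2, and DAXX_KO with etoposide had 2 counts, so that WT exceeded it by a ratio of 6.76 (1.51 to 62.2). These intervals cover counting error only, the gene passed no filter, and no test of replicates was made. No library exceeded 7 counts of ABCB1 in the 8 groups.

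ABCG2 (chr4:89011302-89152780 of GRCh37, minus strand) encodes a transporter of the plasma membrane that works as a dimer and exports drugs, urate and porphyrins. Its level was 0.595, 0.345 and 0.601 CPM in WT controls of the DAXX series and 11.9, 11.1 and 9.39 CPM in DAXX_KO controls. The groups did not overlap, and the difference was 20.3-fold (log2 fold change 4.34 ± 0.36, FDR 5.72e-09). In this series ABCG2 passed the filter through its DAXX_KO libraries, so part of its difference from WT was required by the filter. With etoposide, WT stayed at 0.251, 0.833 and 0.54 CPM and DAXX_KO was at 7.43, 5.28 and 3.47 CPM, again without overlap (log2 3.26 ± 0.39, FDR 8.95e-07). Within DAXX_KO, etoposide lowered the level, and all 3 treated libraries lay below all 3 controls (2-fold lower, FDR 0.00234). The interaction did not pass (log2 −1.08, FDR 0.299), and WT was near the floor. The difference between DAXX_KO and WT remained when the median of the 60 genes around ABCG2 was subtracted (log2 3.83 in control cells).

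ABCG2 in the ATRX series was 0.544, 0.594 and 0.169 CPM in WT and 0.87, 0.837 and 1.75 CPM in ATRX_KO controls. All ATRX_KO libraries lay above all WT libraries, but the difference missed the threshold (log2 1.38 ± 0.54, FDR 0.0508). It passed with library totals (log2 1.44, FDR 0.0415) and with all 24 libraries in 1 model (log2 1.37, FDR 0.0204). With etoposide the values were 0.37, 0.0955 and 0.201 CPM in WT and 0.89, 0.506 and 0.452 CPM in ATRX_KO (log2 1.40 ± 0.68, FDR 0.103). The effect of DAXX_KO in control cells exceeded that of ATRX_KO by 2.98 on the log2 scale (FDR 0.00127). With etoposide this contrast was 1.87 and was not called. The genes most like ABCG2 over the 24 libraries by log2 CPM were BEND6 (Pearson r = 0.950), OSBPL1A (r = 0.945) and WAC-AS1 (r = 0.945). The libraries are grouped by genotype and treatment, so these values describe a shared pattern over 8 groups.

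The 250 bases before a listed start of ABCG2 are shown because this member had the largest increase in DAXX_KO. The sequence is from RefSeq on GRCh38.p14, chr4:88158860-88159109, minus strand, written 5′ to 3′ in the direction of the gene. Capitals mark matches, on either strand, to the GC box GGGCGG, which Sp1-type factors recognise. They also mark an E-box, CACGTG. RefSeq lists 5 starts for the gene, and 1 of them is shown.
ABCG2: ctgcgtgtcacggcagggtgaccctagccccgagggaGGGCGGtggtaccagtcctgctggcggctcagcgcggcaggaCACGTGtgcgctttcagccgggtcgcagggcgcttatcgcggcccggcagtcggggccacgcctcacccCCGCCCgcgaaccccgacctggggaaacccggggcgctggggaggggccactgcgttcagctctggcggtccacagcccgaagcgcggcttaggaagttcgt
GC boxes stood with their first base 213 and 102 bases before the start, and the E-box at 171. The window had 72.4% GC and 29 CpG dinucleotides, against a median of 58.0% and 11 over all 35116 windows. A GC box was present in 42.6% and an E-box in 6.34% of all windows. These matches are descriptions of letters and not binding sites.

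ABCC1 (chr16:16042995-16237114 of GRCh37, plus strand) exports glutathione conjugates and many drugs. It was 19.2, 15.8 and 19.1 CPM in WT controls of the DAXX series and 9.41, 9.17 and 10.8 CPM with etoposide, a fall without overlap (log2 −0.88 ± 0.24, FDR 0.00335). In the ATRX series WT went from 19.6, 19.2 and 18.4 CPM to 10.9, 9.65 and 10.1 CPM, also without overlap (log2 −0.90 ± 0.18, FDR 0.000404). In DAXX_KO the control libraries were at 11.6, 13.1 and 11.1 CPM, below all WT controls (log2 −0.60 ± 0.23, FDR 0.0358). This call was lost with library totals (log2 −0.41, FDR 0.147) and without any 1 of 5 libraries, namely WT control replicates 1 and 3 and DAXX_KO control replicates 1, 2 and 3, where the log2 fold change ranged from −0.67 to −0.54. With etoposide DAXX_KO was at 4.87, 9.32 and 2.58 CPM, a wide spread that reached into the WT range (log2 −0.79 ± 0.27, FDR 0.0204). Leaving out DAXX_KO etoposide replicate 3, the lowest library, gave −0.43 (FDR 0.102), and leaving out replicate 2, the highest, gave −1.40. The call was also lost without DAXX_KO etoposide replicate 1 (−0.69, FDR 0.0744) or WT etoposide replicate 3 (−0.71, FDR 0.0691). Within DAXX_KO etoposide lowered ABCC1 (log2 −1.07 ± 0.27, FDR 0.00198), at −1.69 without DAXX_KO etoposide replicate 2 and at −0.72 without replicate 3. ATRX_KO controls spread over 10.5, 12.5 and 19.4 CPM and overlapped the WT libraries (log2 −0.42 ± 0.17, FDR 0.061). In ATRX_KO with etoposide the level was 10.1, 12.6 and 9.88 CPM, and neither the KO effect (log2 0.09, FDR 0.731) nor the response of ATRX_KO (log2 −0.38, FDR 0.0903) passed with the filter on low counts, while without that filter ABCC1 was called in ATRX_KO controls (−0.43, FDR 0.0252) and in the response of ATRX_KO (−0.42, FDR 0.0305).

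ABCC3 (chr17:48712138-48769614 of GRCh37, plus strand) exports organic anions and glucuronides, including the glucuronide of etoposide. Its level was 10.3, 12.1 and 9.85 CPM in WT and 17.6, 17.4 and 18.9 CPM in DAXX_KO controls, higher without overlap (log2 0.74 ± 0.14, FDR 0.000205). ATRX_KO controls were at 9.48, 9.87 and 11.7 CPM against 13.5, 15.4 and 15.1 CPM in their WT, lower without overlap (log2 −0.50 ± 0.13, FDR 0.00645). The DAXX_KO effect exceeded the ATRX_KO effect by 1.25 on the log2 scale (FDR 1.35e-05). The 60 neighbouring genes had a median of −0.55 in DAXX_KO and −0.40 in ATRX_KO, so relative to them ABCC3 was 1.30 and −0.10. Etoposide raised ABCC3 in WT of both series, to 17.4, 17.1 and 15.3 CPM (log2 0.63 ± 0.14, FDR 0.000877) and to 22.6, 22.3 and 24.6 CPM (log2 0.66 ± 0.13, FDR 0.00029). ATRX_KO rose to 16.2, 12.5 and 16.4 CPM (log2 0.54 ± 0.13, FDR 0.00317) and remained below WT (log2 −0.62 ± 0.13, FDR 0.000734, −0.21 relative to its neighbours). In DAXX_KO the level with etoposide was 20.5, 14.8 and 14.9 CPM, overlapping its own controls (log2 −0.11, FDR 0.52) and the WT libraries (log2 0.00, FDR 0.99). The interaction was −0.74 (FDR 0.016) in the DAXX series and −0.12 (FDR 0.718) in the ATRX series. The genes most like ABCC3 over 24 libraries were EPHX1 (r = 0.875), RASSF4 (r = 0.856) and ZFYVE19 (r = 0.840).

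**Figure D3:**
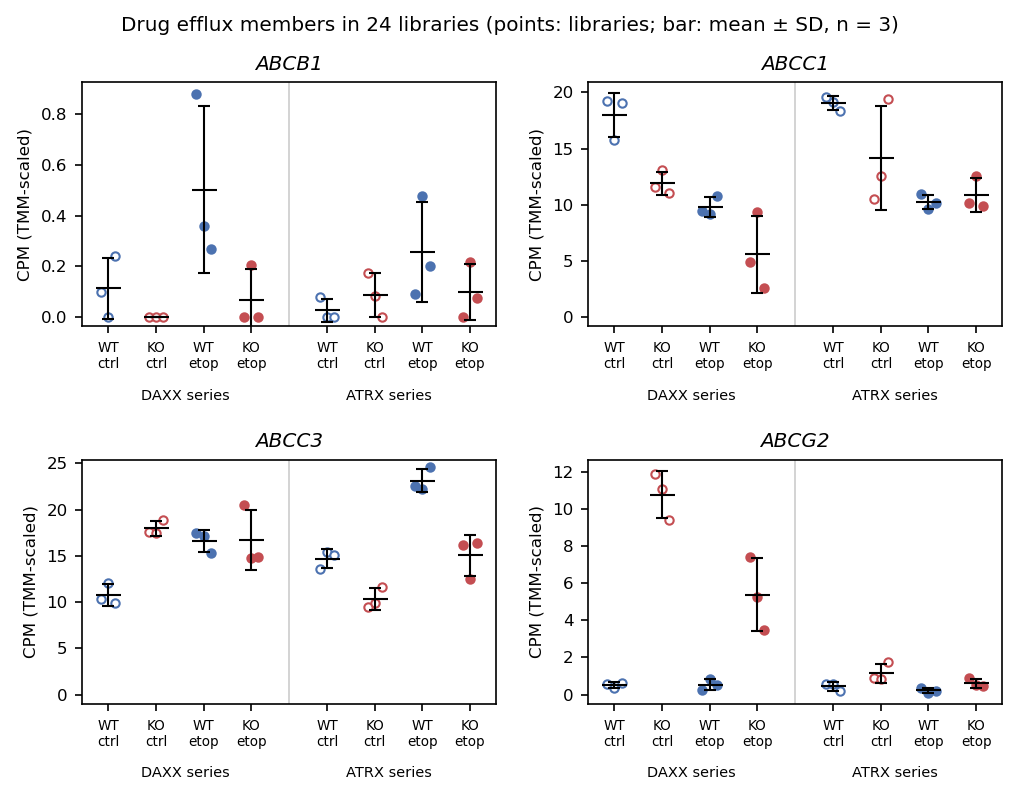
Levels in CPM (y axis, a separate scale per gene) of ABCB1, ABCC1, ABCC3 and ABCG2 in the 8 groups (x axis), with WT in blue, KO in red, control as open and etoposide as filled circles, and mean ± SD of 3 libraries. ABCG2 reaches 11.9 CPM in DAXX_KO controls and stays at or below 1.75 CPM in the ATRX series, and no library of ABCB1 exceeds 0.878 CPM.

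Genes around drug export were counted as lists, which were also chosen with earlier results of these data known. Of 20 tested genes of the NRF2 axis and glutathione conjugation, which supply conjugates to the ABCC exporters, 9 were higher and 7 lower in DAXX_KO controls (median log2 0.14), and 9 were higher and 3 lower in ATRX_KO controls (median 0.39, against 0.02 over all genes). That is 16 and 12 of the 20, against 53.4% and 41.8% of all genes called in these comparisons. SLC7A11, the cystine importer, was lower in DAXX_KO (log2 −1.53 ± 0.11, FDR 6.49e-10), and HMOX1, a haem oxygenase, was higher in ATRX_KO (log2 1.81 ± 0.12, FDR 3.63e-09). GSTM2 was at 1.42 and 1.14 in these comparisons and did not pass (FDR 0.171 and 0.138). Of 9 tested xenobiotic receptors and drug-response genes, 4 were higher and 3 lower in DAXX_KO, and 2 higher and 2 lower in ATRX_KO, or 77.8% and 44.4%, the latter near the share of all genes. CYP1B1, a P450 enzyme, was higher in both (log2 1.55 ± 0.07, FDR 4.18e-13 and 1.17 ± 0.10, FDR 4.83e-08). AHR, a receptor for aromatic compounds, was higher in DAXX_KO (log2 1.05 ± 0.07, FDR 4.39e-10), and AHRR, its repressor, was lower in ATRX_KO (log2 −0.76 ± 0.16, FDR 0.000946).

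Among the other multidrug resistance proteins, ABCC4 fell with etoposide in all 4 cell sets and was lower in both KO lines. ABCC4 exports cyclic nucleotides, prostaglandins and conjugates. WT controls of the DAXX series were at 81.5, 94.1 and 83.7 CPM and DAXX_KO controls at 52.7, 52 and 56 CPM (log2 −0.69 ± 0.08, FDR 8.35e-07). For ATRX the corresponding values were 86.6, 88 and 82.8 CPM and 56.5, 57.6 and 61.4 CPM (log2 −0.55 ± 0.09, FDR 9.14e-05), so no KO control overlapped a WT control. With etoposide the level was 23, 27.4 and 24.2 CPM in WT of the DAXX series, a 3.47-fold fall (log2 −1.80 ± 0.09, FDR 1.6e-12). WT of the ATRX series fell to 24.8, 26.6 and 30.1 CPM (log2 −1.66 ± 0.09, FDR 1.61e-10), DAXX_KO to 21.3, 19.7 and 19.6 CPM (log2 −1.41 ± 0.09, FDR 2.02e-10) and ATRX_KO to 23.1, 23.1 and 18.9 CPM (log2 −1.43 ± 0.10, FDR 2.73e-09). These 4 falls brought all treated libraries below all controls. The 60 neighbouring genes had a median response of −0.73 in WT of the DAXX series and −0.60 in WT of the ATRX series, which leaves −1.06 and −1.06 for ABCC4 relative to them, −0.26 for the DAXX_KO effect in control cells, and −0.01 and −0.58 for the effects of DAXX_KO and ATRX_KO with etoposide. The KO effects with etoposide were −0.30 (FDR 0.0164) and −0.32 (FDR 0.0147), and both calls were lost with library totals, at −0.23 (FDR 0.0643) and −0.22 (FDR 0.0809). The first was also lost without WT etoposide replicate 2 (−0.22, FDR 0.105), and the second without WT etoposide replicate 3 (−0.21, FDR 0.135) or ATRX_KO etoposide replicate 3 (−0.23, FDR 0.0908).

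ABCC5, another exporter of cyclic nucleotides, was higher in ATRX_KO. WT controls of the ATRX series were at 14.8, 12.8 and 12.5 CPM and ATRX_KO controls at 26.5, 26.9 and 24.2 CPM, without overlap (log2 0.95 ± 0.13, FDR 1.19e-05), and it was also higher with etoposide (log2 0.55 ± 0.13, FDR 0.00196). In DAXX_KO the difference was 0.14 (FDR 0.391), and the effects of the 2 KO lines differed by −0.80 (FDR 0.000921). ABCC10 was higher in ATRX_KO with etoposide, at 5.43, 9.17 and 7.92 CPM against 4.9, 3.34 and 4.32 CPM in WT (log2 0.85 ± 0.23, FDR 0.00615), and passed in no other comparison within a series. ABCC10 overlaps DLK2 on the opposite strand. ABCC6 has near-identical pseudogene copies, and whether any of them share its 3′ reads was not tested. The level of ABCC6 was 0.297, 0 and 0.12 CPM in WT and 1.5, 1.19 and 0.963 CPM in DAXX_KO controls, 4 against 29 counts, a ratio of 8.22 (counting interval 2.89 to 32.2). Its fitted log2 fold change was 2.93 ± 0.65, FDR 0.000749, or 4.06 without WT control replicate 1. With etoposide WT was at 0.753, 0.595 and 0.675 CPM and DAXX_KO at 1.46, 1.45 and 2.35 CPM (log2 1.36 ± 0.47, FDR 0.021), a call lost by the DESeq2 Wald test (adjusted p = 0.0569) and without WT etoposide replicate 2 or 3 or DAXX_KO etoposide replicate 3, where the log2 value was between 1.10 and 1.37. Its rise with etoposide in WT of the DAXX series (16 counts against 4, ratio 4.56, interval 1.47 to 18.7) was lost without WT control replicate 2 (log2 1.58, FDR 0.0668) and was 3.23 without WT control replicate 1, against 2.09 with all libraries. ABCC2, the canalicular exporter of liver, passed no comparison of the ATRX series. In the DAXX series, where it was not tested, WT controls had 3 counts and DAXX_KO controls 31, a ratio of 11.7 (3.66 to 59.9).

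ABCC9 encodes SUR2, the regulatory subunit of ATP-sensitive potassium channels in heart and muscle, and rose with etoposide in all 4 cell sets. In the DAXX series WT was at 15.3, 15.5 and 15.1 CPM in control and 33.9, 35.8 and 33.8 CPM with etoposide (log2 1.17 ± 0.12, FDR 4.83e-08). DAXX_KO was at 7.25, 10.4 and 8.78 CPM in control, below every WT control (log2 −0.80 ± 0.14, FDR 7.33e-05), and at 42.8, 44.6 and 35.4 CPM with etoposide (log2 2.22 ± 0.13, FDR 2.25e-11). The response of DAXX_KO thus exceeded that of WT (interaction 1.05 ± 0.18, FDR 0.00046). ATRX_KO went from 17.4, 17.1 and 14.4 CPM to 41.2, 42.1 and 38 CPM (log2 1.31 ± 0.12, FDR 1.46e-07), and its WT cells from 14.2, 14.4 and 10.7 CPM to 34.5, 41.8 and 42 CPM (log2 1.59 ± 0.13, FDR 9.61e-09). With etoposide DAXX_KO and WT overlapped (log2 0.25, FDR 0.0592), although library totals gave 0.32 (FDR 0.0198). No KO effect was called in the ATRX series (control log2 0.31, FDR 0.0669), where library totals gave 0.37 (FDR 0.0312) in control cells. The pore subunits of these channels, KCNJ8 and KCNJ11, stayed at or below 2 and 4 counts in every library, and neither was tested.

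ABCB4, which moves phosphatidylcholine into bile and adjoins ABCB1 on chromosome 7, was lower in both KO lines. It passed the filter through WT libraries, so part of this difference was required by the filter. In the DAXX series WT controls held 2.97, 1.5 and 1.32 CPM, or 54 counts in all, and DAXX_KO controls held 0 counts. Against a floor of 3 counts per library this is at least 5.12-fold lower (FDR 2.42e-05). For ATRX, WT controls were at 2.1, 3.82 and 3.13 CPM and ATRX_KO controls at 0, 0.0837 and 0.0795 CPM, 109 against 2 counts, a ratio of 53.9 (counting interval 14.6 to 451, FDR 1.5e-06). With etoposide WT was at 1.25, 2.74 and 2.97 CPM and DAXX_KO at 0.365, 0.104 and 0.224 CPM (ratio 10.3, interval 4.45 to 29.4, FDR 0.000206). The ATRX series gave 4.53, 2.39 and 2.61 CPM in WT and 0.178, 0.361 and 0.226 CPM in ATRX_KO (log2 −3.56 ± 0.47, FDR 9.72e-06). In none of these 4 comparisons did KO and WT libraries overlap. No response of ABCB4 was called in WT (log2 0.24 and 0.08, FDR 0.656 and 0.854). In DAXX_KO the response was called (FDR 0.0396), but both groups lay at or under 3 counts per library, so no fold is given, and the call was lost without any 1 of 5 of the 6 DAXX_KO libraries, DAXX_KO etoposide replicate 2 being the exception. ABCB5, a relative of ABCB1 known from melanoma, was between 0 and 2.16 CPM and passed in no comparison.

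ABCA1 and ABCG1, which hand cholesterol to lipoproteins and are classical targets of the liver X receptors, were the only tested sterol exporters. ABCA1 (chr9:107543287-107690436 of GRCh37, minus strand) was 24.3, 21.6 and 24.1 CPM in WT and 137, 151 and 147 CPM in DAXX_KO controls, a 6.2-fold difference without overlap (log2 2.63 ± 0.08, FDR 1.08e-14). ATRX_KO controls were at 73.2, 107 and 130 CPM and their WT at 27.1, 34.5 and 34.5 CPM, 3.24-fold higher without overlap (log2 1.70 ± 0.15, FDR 1.54e-07). The effect of DAXX_KO was larger by 0.94 on the log2 scale (FDR 0.000321). Etoposide raised ABCA1 in WT cells, to 60, 55.9 and 56.5 CPM in the DAXX series (log2 1.30 ± 0.09, FDR 1.32e-10) and to 77.4, 72.5 and 73.3 CPM in the ATRX series (log2 1.22 ± 0.16, FDR 3.29e-06). DAXX_KO with etoposide was at 120, 115 and 104 CPM, below its own controls (log2 −0.36 ± 0.07, FDR 0.000349, −0.12 relative to its neighbours), and ATRX_KO at 110, 120 and 120 CPM, within reach of its controls (log2 0.17 ± 0.14, FDR 0.342). Both KO lines stayed above treated WT (log2 0.98 ± 0.08, FDR 3.54e-09 and 0.65 ± 0.15, FDR 0.00158). The lower response in KO cells gave interactions of −1.66 ± 0.11, FDR 1.92e-08 in the DAXX series and −1.04 ± 0.21, FDR 0.00323 in the ATRX series.

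The 250 bases before the RefSeq start of ABCA1 are shown because this member was higher in both KO lines and had a lower response to etoposide than WT in both. They lie at chr9:104928156-104928405 of GRCh38.p14, minus strand, written 5′ to 3′. Capitals mark GC boxes and an E-box as above, a TATA box with the letters TATAAA, a single p53 decamer, and a direct repeat of the kind that liver X receptors bind.
ABCA1: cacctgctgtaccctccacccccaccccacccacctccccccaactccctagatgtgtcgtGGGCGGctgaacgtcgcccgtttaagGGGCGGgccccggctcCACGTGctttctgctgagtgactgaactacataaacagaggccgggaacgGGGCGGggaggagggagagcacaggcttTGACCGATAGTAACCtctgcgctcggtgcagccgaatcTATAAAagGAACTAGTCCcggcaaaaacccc
The direct repeat, a pair of GGTNA elements with any 5 bases between them, stood 69 bases before the start and was found in 0.533% of all windows, searched on both strands. Of 53 windows from the 35 members with an entry, the ABCA1 window was the only one that held it. The TATA box stood 31 bases before the start (10.7% of windows hold one), and the p53 decamer, a 10-base motif found in 5.57% of all windows and in 8 of the members' windows, stood 23 bases before it. A decamer is only part of a p53 response element, which has a pair of them, and whether p53 binds here was not analysed.

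ABCG1 was 2.96, 3.14 and 2.54 CPM in WT and 5.05, 6.02 and 5.24 CPM in ATRX_KO controls (log2 0.91 ± 0.19, FDR 0.000913), and the neighbouring genes had a median of −0.65, so that ABCG1 stood at 1.57 relative to them. Etoposide brought WT to 5.09, 5.25 and 5.92 CPM (log2 0.91 ± 0.19, FDR 0.000569) and ATRX_KO to 4.18, 4.05 and 4.45 CPM (log2 −0.36 ± 0.18, FDR 0.109). The interaction was −1.27 ± 0.26, FDR 0.00373, the same direction as for ABCA1. In the DAXX series no comparison of ABCG1 passed, and DAXX_KO with etoposide spread over 3.78, 1.04 and 6.49 CPM. Of 12 tested genes of the liver X receptor and sterol-efflux list, 7 were higher and 1 lower in DAXX_KO controls (median log2 0.55, against 0.02 over all genes), and 4 were higher and 1 lower in ATRX_KO controls (median 0.22), or 66.7% and 41.7% against 53.4% and 41.8% of all genes. LPCAT3, a phospholipid remodelling enzyme, rose by 1.73 ± 0.09, FDR 4.85e-12 in DAXX_KO. SCARB1, a lipoprotein receptor, was higher in both KO lines (log2 1.59 ± 0.18, FDR 5.55e-07 and 1.03 ± 0.17, FDR 0.000107), and NPC1, which exports cholesterol from lysosomes, was higher in ATRX_KO (log2 1.05 ± 0.12, FDR 1.59e-06). With etoposide the list had 5 higher and 2 lower genes in WT of the DAXX series and 6 higher and 1 lower in WT of the ATRX series, which is 58.3% in each, against 60.2% and 61.5% of all genes. MYLIP, a liver X receptor target that degrades the LDL receptor, rose in both (log2 1.11 ± 0.17, FDR 1.3e-05 and 1.13 ± 0.17, FDR 1.89e-05), as did NR1H3, a liver X receptor itself, in WT of the DAXX series (log2 1.29 ± 0.25, FDR 0.000147) and NPC2, a cholesterol carrier of lysosomes, in WT of the ATRX series (log2 0.93 ± 0.07, FDR 9.06e-09).

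The other A-subfamily genes encode lipid transporters. ABCA12, which loads lipids into lamellar granules of skin, rose from near 0 with etoposide in all 4 cell sets. It passed the filter through treated libraries, so part of this rise was required by the filter. WT controls of the DAXX series had 0 counts and treated WT cells 7.65, 5.59 and 6.62 CPM, at least 19.8-fold higher against a floor of 3 counts per library (FDR 8.95e-09). DAXX_KO controls also had 0 counts, and treated DAXX_KO cells were at 14.6, 10 and 14.6 CPM, at least 34.7-fold higher (FDR 1.41e-09). Treated WT of the ATRX series reached 18.3, 18.2 and 18.9 CPM from 1 count over 3 control libraries, a ratio of 673 (counting interval 120 to 26633). The fitted log2 value was 8.93, and 10.76 without WT control replicate 1, which held that count. ATRX_KO went from 4 counts to 5.07, 9.54 and 9.12 CPM, a ratio of 72.8 (28.2 to 269). Among treated cells, DAXX_KO was above WT (log2 0.98 ± 0.22, FDR 0.00151) and ATRX_KO below WT (log2 −1.21 ± 0.22, FDR 0.000282), without overlap in either series, and the 2 effects differed by 2.17 (FDR 1.83e-05). The treated WT cells themselves differed between the series, with means of 6.62 CPM in the DAXX series and 18.5 CPM in the ATRX series. Treated DAXX_KO and ATRX_KO had means of 13.1 and 7.91 CPM.

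ABCA13, a very large relative of unsettled substrate, also rose with etoposide in all 4 cell sets. It too passed the filter through treated libraries, with the same limit. WT of the DAXX series went from 0.0991, 0 and 0.12 CPM to 2.64, 2.14 and 2.97 CPM, 2 against 61 counts, a ratio of 34.8 (9.22 to 294). WT of the ATRX series went from 0.233, 0.17 and 0.169 CPM to 6.57, 5.83 and 6.93 CPM (ratio 33.5, interval 16.0 to 84.4). Treated DAXX_KO was at 0.731, 0.518 and 0.896 CPM, below WT (log2 −1.84 ± 0.47, FDR 0.00273), and treated ATRX_KO at 1.78, 2.09 and 2.94 CPM, also below WT (log2 −1.49 ± 0.30, FDR 0.000541). Both KO lines still rose over their own controls (FDR 0.00684 and 0.000500), with a ratio of 8.47 (2.04 to 75.0) in DAXX_KO that rests on 19 against 2 counts. The fitted rise in DAXX_KO was 2.88, and 5.63 without DAXX_KO control replicate 2, which held both counts. The interaction was called in the ATRX series (log2 −3.11 ± 0.63, FDR 0.00325) and not in the DAXX series (log2 −1.99, FDR 0.446). In control cells ATRX_KO was at 0.261, 1 and 0.556 CPM (log2 1.61 ± 0.56, FDR 0.0294), a call lost without any WT control library or without ATRX_KO control replicate 2, where it ranged from 1.07 to 1.79.

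The starts of ABCA12 and ABCA13 are shown because these members rose with etoposide in WT and KO cells of both series. ABCA12 rose from near 0 in each, whereas ABCA13 was already at 0.261 to 1 CPM in ATRX_KO controls. The windows are from RefSeq on GRCh38.p14, chr2:215138627-215138876 on the minus strand and chr7:48171208-48171457 on the plus strand, written 5′ to 3′. The capitals mark the only match to the searched motifs in them, a p53 decamer 82 bases before the ABCA12 start shown, which is 1 of 2 listed.
ABCA12: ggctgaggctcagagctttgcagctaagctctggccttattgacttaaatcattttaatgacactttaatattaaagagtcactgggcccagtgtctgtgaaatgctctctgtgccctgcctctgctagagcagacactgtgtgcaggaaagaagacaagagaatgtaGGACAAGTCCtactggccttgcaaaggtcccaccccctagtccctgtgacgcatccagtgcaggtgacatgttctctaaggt
ABCA13: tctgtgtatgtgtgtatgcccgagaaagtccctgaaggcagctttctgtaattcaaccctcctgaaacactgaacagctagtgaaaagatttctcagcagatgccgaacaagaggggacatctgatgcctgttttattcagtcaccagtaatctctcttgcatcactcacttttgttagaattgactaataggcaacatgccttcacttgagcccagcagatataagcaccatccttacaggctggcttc
These windows had 48.8% and 44.8% GC and 1 and 2 CpG dinucleotides, against medians of 61.6% and 16 over the members' windows. The ABCA1 and ABCG2 windows above had 16 and 29. A CCAAT box (32.0% of all windows) and the core of the antioxidant response element (10.9%) were also searched and matched none of the 4 windows shown.

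ABCA4, the retinal flippase of photoreceptors, was higher in ATRX_KO. WT controls of the ATRX series had 0 counts and ATRX_KO controls 0.957, 0.92 and 1.67 CPM, at least 4.78-fold higher against the floor (FDR 3.56e-05). ABCA4 passed the filter through its ATRX_KO libraries, so part of its difference from WT was required by the filter. With etoposide WT was at 0.74, 0.478 and 1.2 CPM, at least 3.26-fold above its controls (FDR 8.18e-05), and ATRX_KO at 2.67, 2.24 and 2.71 CPM, above WT without overlap (log2 1.65 ± 0.41, FDR 0.00431). The rise within ATRX_KO (log2 1.09 ± 0.38, FDR 0.0285) was lost without ATRX_KO control replicate 1 or 2 or any ATRX_KO etoposide library, where it ranged from 0.93 to 1.17. ABCA4 was not tested in the DAXX series, where no library exceeded 0.675 CPM.

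ABCA2, an endosomal transporter abundant in oligodendrocytes, was 0.396, 0.345 and 1.2 CPM in WT and 2.87, 3.83 and 3.25 CPM in DAXX_KO controls (log2 2.36 ± 0.48, FDR 0.000345). With etoposide it was 1.51, 0.357 and 1.49 CPM and 4.63, 3.52 and 6.49 CPM (log2 2.13 ± 0.43, FDR 0.000316). The groups did not overlap in either condition, and the genes around ABCA2 were higher too, with medians of 0.90 and 1.11, leaving 1.46 and 1.02 relative to them. Without WT control replicate 3 the value in control cells was 3.10. In ATRX_KO with etoposide ABCA2 was 0.84 higher (FDR 0.0265), a call lost without WT etoposide replicate 2 or 3 or ATRX_KO etoposide replicate 2, at 0.78 to 0.82. ABCA7, a relative of ABCA1 expressed in microglia, was 0.198, 0.115 and 0.36 CPM in WT and 1.62, 1.19 and 0.481 CPM in DAXX_KO controls, 6 against 26 counts, a ratio of 4.92 (1.98 to 14.6, FDR 0.00504). With etoposide ABCA7 was 0.878, 0.476 and 0.945 CPM in WT and 3.17, 2.07 and 2.46 CPM in DAXX_KO. It was called higher there, without overlap (log2 1.73), although the filter kept it through its DAXX_KO libraries. Its rises with etoposide in WT (1.71, FDR 0.0314) and in DAXX_KO (1.22, FDR 0.0214) were lost without 4 and 2 single libraries. These were WT control replicates 1 and 2 and WT etoposide replicates 1 and 3 in the former (1.43 to 1.64), and DAXX_KO control replicate 3 and DAXX_KO etoposide replicate 1 in the latter (0.85 and 1.04).

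ABCA5 and ABCA9 lie in the chromosome 17 cluster with ABCA6, ABCA8 and ABCA10, and ABCA5 overlaps ABCA10 on the same strand, so that their reads could not be separated there. Both rose with etoposide in WT cells. ABCA5 went from 4.66, 3.57 and 3.6 CPM to 7.65, 8.45 and 7.16 CPM (log2 0.97 ± 0.21, FDR 0.000603) in the DAXX series, and by 0.79 ± 0.19, FDR 0.00192 in the ATRX series. ABCA9 went from 2.08, 1.38 and 2.28 CPM to 3.89, 5.48 and 4.59 CPM (log2 1.27 ± 0.28, FDR 0.000674), and by 1.36 ± 0.23, FDR 7e-05 in the ATRX series, where ATRX_KO rose too (log2 1.55 ± 0.24, FDR 5.37e-05). With etoposide, ABCA5 was lower in DAXX_KO (log2 −0.85 ± 0.21, FDR 0.00204) and in ATRX_KO (log2 −0.79 ± 0.19, FDR 0.00281), and ABCA9 in DAXX_KO (log2 −0.73 ± 0.27, FDR 0.0287). The 60 genes around them had medians of −0.73 and −0.69 in DAXX_KO, so relative to their neighbours both were near 0, at −0.13 and −0.04, and ABCA5 was −0.41 relative to them in ATRX_KO. The ABCA9 call was lost without WT etoposide replicate 2 or 3 or DAXX_KO etoposide replicate 1 or 2 (−0.74 to −0.59). The interaction of ABCA9 in the DAXX series (−1.36, FDR 0.0283) was lost without any 1 of 5 libraries (WT control replicate 2, WT etoposide replicates 2 and 3, DAXX_KO control replicate 1 and DAXX_KO etoposide replicate 1), at −1.37 to −1.16. ABCA3, which packs surfactant lipids in lung, rose with etoposide in WT of the DAXX series (log2 1.24 ± 0.44, FDR 0.0200, 0.75 relative to its neighbours) and in ATRX_KO (log2 1.51 ± 0.46, FDR 0.0115) and passed in no other comparison. The former call was lost without WT control replicate 3 or WT etoposide replicate 1 (0.98 and 1.01), and the latter without replicate 3 of ATRX_KO control or ATRX_KO etoposide (1.11 and 1.25).

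**Figure D4:**
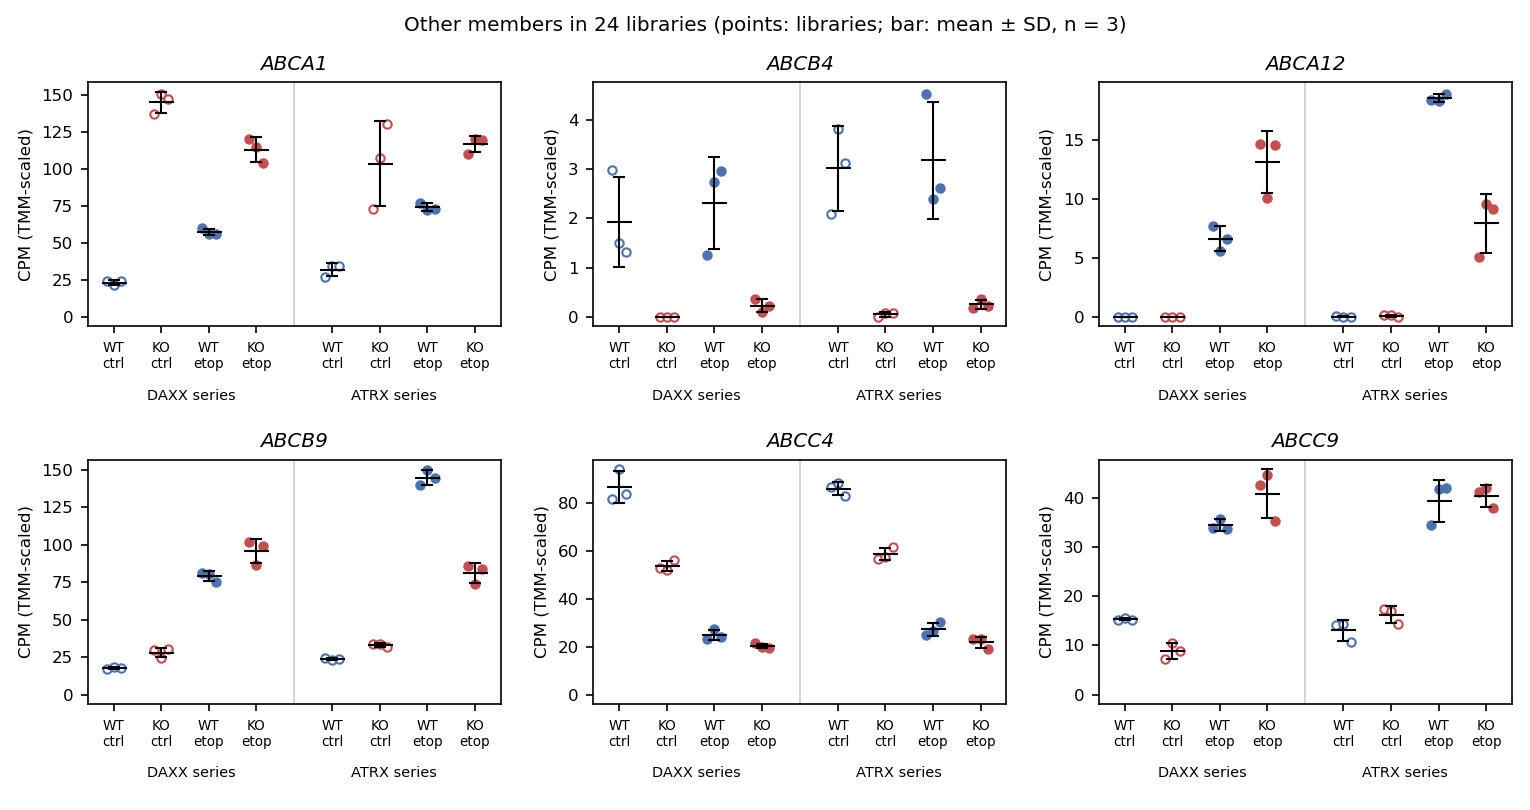
Levels in CPM (y axis, a separate scale per gene) of ABCA1, ABCB4, ABCA12, ABCB9, ABCC4 and ABCC9 in the 8 groups (x axis), with WT in blue, KO in red, control as open and etoposide as filled circles, and mean ± SD of 3 libraries. ABCA12 is at or near 0 in all 12 control libraries, ABCB4 stays at or below 0.365 CPM in all 12 KO libraries, and ABCA1 in KO controls lies above every WT control.

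ABCB9, a lysosomal transporter that imports peptides and is related to the antigen transporters TAP1 and TAP2, rose with etoposide in all 4 cell sets. In the DAXX series WT went from 17.2, 18.6 and 17.9 CPM to 81.1, 80.8 and 75.2 CPM (log2 2.14 ± 0.10, FDR 3.15e-13), and DAXX_KO from 29.5, 24.5 and 30.2 CPM to 102, 86.9 and 99.1 CPM (log2 1.77 ± 0.09, FDR 4.27e-12). In the ATRX series WT went from 24.7, 23.4 and 23.6 CPM to 140, 150 and 145 CPM, 6.06-fold (log2 2.60 ± 0.08, FDR 1.03e-13), and ATRX_KO from 34.1, 33.7 and 31.8 CPM to 86, 73.9 and 83.8 CPM (log2 1.29 ± 0.08, FDR 8.67e-10). Treated ATRX_KO lay below all treated WT libraries of the ATRX series (log2 −0.84 ± 0.07, FDR 1.21e-07). Treated DAXX_KO lay above all treated WT libraries of the DAXX series (log2 0.28 ± 0.08, FDR 0.00794). The treated WT cells themselves differed between the series, with means of 79.0 CPM in the DAXX series and 145 CPM in the ATRX series. In control cells both KO lines were higher than WT, by 0.65 ± 0.10, FDR 2.83e-05 and 0.47 ± 0.08, FDR 0.000221. Relative to its neighbours ABCB9 was 0.24 in ATRX_KO controls and 0.16 in treated DAXX_KO. The interaction was −1.31 ± 0.11, FDR 2.29e-06 in the ATRX series and −0.37 (FDR 0.0691) in the DAXX series, and the difference between these interactions was 0.91 (FDR 0.00262). OGFOD2 and ARL6IP4 overlap ABCB9 on the opposite strand, and whether the counts used strand was not stated. TAP1 also rose with etoposide in WT cells (log2 2.03 ± 0.09, FDR 3.65e-13 and 1.32 ± 0.10, FDR 4.05e-09), whereas TAP2 was lower in the DAXX series (log2 −0.26 ± 0.10, FDR 0.032) and was at −0.16 (FDR 0.172) in the ATRX series.

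Several transporters of the family sit in mitochondria. ABCB10, a transporter of the inner membrane needed for haem synthesis, fell with etoposide in all 4 cell sets. Its WT level went from 5.85, 3.68 and 4.2 CPM to 1.25, 0.714 and 1.76 CPM in the DAXX series (log2 −1.90 ± 0.35, FDR 0.000113) and from 5.05, 5.09 and 5.5 CPM to 1.02, 1.72 and 1.3 CPM in the ATRX series (log2 −1.95 ± 0.30, FDR 2.27e-05). The responses of DAXX_KO and ATRX_KO were −1.67 ± 0.33, FDR 0.000245 and −1.49 ± 0.29, FDR 0.000348. In all 4 cases the treated libraries lay below the controls, and no KO effect on ABCB10 was called, with log2 values of 0.16, 0.38, −0.27 and 0.19 in DAXX_KO and then ATRX_KO, each without and with etoposide (FDR 0.675, 0.452, 0.433 and 0.668).

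ABCB6, a porphyrin transporter, was 9.02, 11.1 and 10.7 CPM in WT and 14.7, 16 and 15.6 CPM in DAXX_KO controls, higher in DAXX_KO (log2 0.60 ± 0.15, FDR 0.00246). ATRX_KO controls were at 9.57, 8.78 and 7.63 CPM and their WT at 14.8, 13.5 and 16.2 CPM, lower in ATRX_KO (log2 −0.78 ± 0.13, FDR 0.000143). These opposite effects differed by 1.38 (FDR 3.58e-06). Etoposide raised ABCB6 to 31.6, 33.7 and 30.3 CPM in WT of the DAXX series (log2 1.64 ± 0.14, FDR 5.08e-09) and to 26.7, 25.9 and 23.7 CPM in WT of the ATRX series (log2 0.78 ± 0.12, FDR 3.19e-05). DAXX_KO rose less, to 24.2, 18.3 and 27.9 CPM (log2 0.60 ± 0.14, FDR 0.00101), and ATRX_KO, at 7.03, 8.31 and 8.37 CPM, did not pass (log2 −0.13, FDR 0.477). The interactions were −1.04 ± 0.20, FDR 0.0014 and −0.91 ± 0.18, FDR 0.00324.

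ABCB8, a mitochondrial transporter, was higher in DAXX_KO in control cells (log2 0.48 ± 0.13, FDR 0.00361) and with etoposide (log2 0.86 ± 0.13, FDR 1.15e-05), where its neighbours had medians of 0.47 and 0.51, and in ATRX_KO control cells (log2 0.59 ± 0.14, FDR 0.00298). Its response to etoposide was −0.36 (FDR 0.0413) in ATRX_KO and 0.29 (FDR 0.0934) in WT of that series, and the interaction was −0.65 ± 0.20, FDR 0.037. The response of ATRX_KO was lost under 7 of 8 other settings, and without ATRX_KO control replicate 2 or 3, ATRX_KO etoposide replicate 1 or 3 or WT etoposide replicate 1 (−0.37 to −0.28). The interaction was lost without a filter on low counts (FDR 0.0594) and without any 1 of 8 of the 12 libraries, those that kept it being replicate 1 of each control group, ATRX_KO etoposide replicate 2 and WT etoposide replicate 3 (−0.65 to −0.53). Of 9 genes of iron-sulfur and haem metabolism, 3 were higher and 2 lower in DAXX_KO controls and 1 higher and 4 lower in ATRX_KO controls, which is 55.6% in each, against 53.4% and 41.8% of all genes. ISCU, the iron-sulfur scaffold, was higher in DAXX_KO (log2 0.64 ± 0.11, FDR 6.69e-05). NFS1, the cysteine desulfurase, was higher in DAXX_KO (log2 0.52 ± 0.09, FDR 0.000101), and SLC25A37, the mitochondrial iron importer, and FECH, the last enzyme of haem synthesis, were lower in ATRX_KO (log2 −0.67 ± 0.07, FDR 7.25e-07 and −0.46 ± 0.13, FDR 0.011).

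Among the D subfamily, ABCD3, a peroxisomal transporter of fatty acids, was lower in ATRX_KO with etoposide (log2 −0.34 ± 0.11, FDR 0.0183, −0.64 relative to its neighbours), and passed in no other comparison within a series. This call was lost with library totals (−0.24, FDR 0.0847), with all 24 libraries in 1 model (FDR 0.0754), without a filter on low counts (FDR 0.0699) and without ATRX_KO etoposide replicate 3 or any WT etoposide library (−0.33 to −0.26). ABCD4, which handles vitamin B12 in lysosomes, fell with etoposide in WT of both series (log2 −0.75 ± 0.21, FDR 0.00459 and −0.52 ± 0.18, FDR 0.0172) and in DAXX_KO (log2 −0.57 ± 0.22, FDR 0.0366). The fall in DAXX_KO was lost under 4 of 8 other settings and without any DAXX_KO control library or DAXX_KO etoposide replicate 1 or 3 (−0.58 to −0.45), and that in WT of the ATRX series without WT control replicate 1 or 2 or WT etoposide replicate 1 (−0.48 to −0.44). Of 9 peroxisome and very long chain fatty acid genes, 4 were higher and 1 lower in DAXX_KO controls, with ACSL1, an acyl-CoA synthetase, at 0.81 ± 0.15, FDR 0.000157 and HSD17B4, a peroxisomal beta-oxidation enzyme, at 0.66 ± 0.13, FDR 0.000173. That is 55.6%, against 53.4% of all genes. In ATRX_KO 1 was higher and 2 lower (33.3%, against 41.8% of all genes), with PEX16, a peroxisome assembly factor, at −0.67 ± 0.20, FDR 0.0111 and HSD17B4 at 0.63 ± 0.16, FDR 0.00462.

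The 4 soluble members, ABCE1 and ABCF1 to ABCF3, were tested in both series, and ABCE1 fell with etoposide in all 4 cell sets. ABCE1, which splits ribosomes after termination, was 90.7, 91.8 and 89.7 CPM in WT controls of the DAXX series and 44.3, 40 and 42.7 CPM with etoposide (log2 −1.10 ± 0.07, FDR 1.73e-10). WT of the ATRX series went from 83.8, 85.4 and 81.6 CPM to 45.4, 42.6 and 36.5 CPM (log2 −1.01 ± 0.12, FDR 1.25e-06), DAXX_KO from 72.2, 73.4 and 76.3 CPM to 42.6, 48.7 and 45.9 CPM (log2 −0.69 ± 0.07, FDR 1.98e-07) and ATRX_KO from 68.7, 55.1 and 68.3 CPM to 34.7, 40.7 and 28.7 CPM (log2 −0.88 ± 0.12, FDR 1.08e-05). In all 4 cell sets the treated libraries lay below the controls. In control cells ABCE1 was lower in DAXX_KO (−0.29 ± 0.07, FDR 0.00174), a call lost with library totals (−0.11, FDR 0.219), and in ATRX_KO (−0.38 ± 0.12, FDR 0.0129), a call lost without ATRX_KO control replicate 2 (−0.29, FDR 0.0692). The interaction in the DAXX series was 0.41 ± 0.11, FDR 0.0128, which library totals reduced to 0.30 (FDR 0.0758). Relative to its neighbours ABCE1 was −0.76 in DAXX_KO controls, and its responses were −0.71 in WT of the DAXX series and −0.38 in DAXX_KO. ANAPC10 and OTUD4 overlap ABCE1 on the opposite strand.

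ABCF1, an initiation factor partner, was at 148, 142 and 162 CPM in WT and 145, 128 and 122 CPM in DAXX_KO controls, with overlapping ranges (log2 −0.19 ± 0.08, FDR 0.0446), and was 0.30 ± 0.10, FDR 0.0215 in ATRX_KO. The first call was lost with library totals (−0.0085, FDR 0.935) and without replicate 1 or 3 of WT control, replicate 2 or 3 of DAXX_KO control, WT etoposide replicate 2 or DAXX_KO etoposide replicate 1 (−0.20 to −0.13), and the second without WT control replicate 3 or ATRX_KO control replicate 1 or 2 (0.22 to 0.28). With etoposide ABCF1 fell in WT of the DAXX series (log2 −0.42 ± 0.08, FDR 0.000139, −0.80 relative to its neighbours) and in ATRX_KO (log2 −0.26 ± 0.10, FDR 0.0365), the latter lost under 4 of 8 other settings and without ATRX_KO control replicate 1 or 2, ATRX_KO etoposide replicate 1 or WT etoposide replicate 2 (−0.26 to −0.18). ABCF2 passed in DAXX_KO with etoposide (log2 0.27 ± 0.07, FDR 0.0039), where its neighbours had a median of 0.51, so that ABCF2 was −0.24 relative to them. It rose with etoposide in DAXX_KO (log2 0.29 ± 0.07, FDR 0.0022) and fell in WT of the ATRX series (log2 −0.23 ± 0.07, FDR 0.013). ABCF3 was lower in DAXX_KO controls (log2 −0.36 ± 0.14, FDR 0.0408, −0.05 relative to its neighbours, a call lost under 4 of 8 other settings and without WT control replicate 2 or 3 or DAXX_KO control replicate 1 or 2, at −0.38 to −0.25) and rose with etoposide in DAXX_KO (log2 0.70 ± 0.14, FDR 0.000258) and ATRX_KO (log2 0.55 ± 0.13, FDR 0.00234), and it was higher in ATRX_KO than in WT with etoposide (log2 0.50 ± 0.13, FDR 0.00533). Of 9 partners in ribosome recycling and translation, none was higher and 6 were lower in DAXX_KO controls (median log2 −0.53, against 0.02 over all genes), and 1 was higher and 2 lower in ATRX_KO controls, or 66.7% and 33.3% against 53.4% and 41.8% of all genes. PELO, the ribosome rescue factor that works with ABCE1, was lower in DAXX_KO (log2 −0.94 ± 0.11, FDR 8.29e-07), as was EIF2S1, a subunit of initiation factor eIF2 (log2 −0.76 ± 0.07, FDR 9.58e-09), which was also lower in ATRX_KO (log2 −0.50 ± 0.08, FDR 0.000107). GCN1, which senses stalled ribosomes, was higher in ATRX_KO (log2 0.52 ± 0.10, FDR 0.000553). With etoposide, 1 was higher and 4 lower in WT of the DAXX series, and 1 higher and 7 lower in WT of the ATRX series, or 55.6% and 88.9% against 60.2% and 61.5% of all genes. HBS1L, the partner of PELO, was lower in both (log2 −1.13 ± 0.13, FDR 3.19e-07 and −1.23 ± 0.13, FDR 3.04e-07), GSPT1, a termination factor, in WT of the DAXX series (log2 −0.62 ± 0.07, FDR 4.38e-07), and PELO was higher in WT of the ATRX series (log2 0.77 ± 0.08, FDR 1.95e-07).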

How the data were processed

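RNA of the 24 samples was sequenced with QuantSeq 3′ mRNA libraries on single-end reads. Alignment by the authors used STAR, followed by quantification of genes with RSEM (version 1.2.3 in the submitters' processing notes), and the deposited table holds RSEM expected counts per gene, in whole numbers, with no normalization. Whether counting used strand is not given in the sources used here. A 3′ protocol reads the end of a transcript, so isoforms that share an end were not told apart. Gene symbols, types and GRCh37 coordinates came from GENCODE v44lift37, which matched 55501 of 57736 identifiers holding 98.8% of all counts. The unmatched identifiers have no symbol and could not be chosen as members. Promoter windows came from RefSeq on GRCh38.p14.

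Each series of 12 libraries was fitted as 4 groups with edgeR 4.0.16 (R 4.3.3): TMM scaling, a filter at a minimum count of 10 and total of 15 (15247 genes tested for DAXX, 16371 for ATRX), the quasi-likelihood test, and Benjamini-Hochberg adjustment over all genes tested at an FDR of 0.05. Differences between DAXX_KO and ATRX_KO effects were contrasts in 1 model of all 24 libraries (16674 genes). The SE is the absolute log2 fold change over the square root of F. The biological coefficient of variation was 0.0825, 0.106 and 0.0960 in the 3 models. The study's methods used DESeq2 for such comparisons, which was run here as an alternative (version 1.42.0). CPM were computed on the TMM-scaled library size.

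All members entered the fits and the counts, and the results of some are not reported here. Full values were given to ABCB1, ABCC1, ABCC3 and ABCG2 and, in each comparison within a series, to the 3 called members with the largest increase and the 3 with the largest decrease, with short values for the others. In a companion list, values went to the 2 genes with the largest change per comparison described. A group with 0 counts was set to a floor of 3 counts per library for a lower bound of a fold, and groups with few counts were compared by a ratio of summed counts with an exact 95% interval that covers counting error only. Relative values subtract the median log2 fold change of the 60 nearest tested genes on the chromosome, 30 on each side. The members and the companion lists were chosen with earlier results of these data known. The alternatives were RLE size factors, library totals alone, no filter, at least 10 counts in every library, the DESeq2 Wald test, a replicate block, all 24 libraries in 1 model, only the groups compared, and leaving out each library. Pairs of replicates differed beyond sampling noise in all 24 cases (chi-square per degree of freedom 2.16 to 17.1), so none was a library deposited again. The fitting code was tested on simulated data.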

Additional observations from a re-analysis of the deposited data

Results flagged for a closer look

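Each value here is a log2 difference whose own test passed an FDR of 0.05 in edgeR's quasi-likelihood test, either an interaction of KO with etoposide within a series or a contrast between the DAXX_KO and ATRX_KO effects in the model of 24 libraries. Responses are signed, so that a lower response in KO covers a smaller rise, no rise and a fall. For the interactions, such differences were found in 9 of 31 and 7 of 32 tested members of the DAXX and ATRX series. The shares of all genes were 14.2% and 16.0%. The contrasts in control cells, with etoposide and between the interactions gave 10, 7 and 4 members. These are 30.3%, 21.2% and 12.1% of 33 tested members, against 34.1%, 34.5% and 3.00% of all genes.

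Among lipid transporters, ABCA1 had a lower response to etoposide in DAXX_KO (−1.66) and in ATRX_KO (−1.04), and its increase in control cells was larger in DAXX_KO than in ATRX_KO (0.94). ABCG1 had a lower response in ATRX_KO (−1.27). ABCA13 (−3.11) and ABCA4 (−5.18) also had lower responses in ATRX_KO, and for both the WT controls were at or under 3 counts in every library. The value of ABCA4 depends on the model because its WT controls had 0 counts. ABCA9 had a lower response in DAXX_KO (−1.36) and had a higher effect of DAXX_KO in control cells (1.23), a call lost without a filter on low counts (FDR 0.0623). With etoposide the DAXX_KO effect exceeded that of ATRX_KO for ABCA12 (2.17) and ABCA7 (2.28), the latter lost without ATRX WT etoposide replicate 2 (1.98, FDR 0.0538). In control cells it did so for ABCA2 (1.81), a call lost without DAXX WT control replicate 1 (1.53, FDR 0.0631) or 2 (1.51, FDR 0.0609), while without DAXX WT control replicate 3 the value was 2.53.

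Among efflux and related transporters, the DAXX_KO effect exceeded that of ATRX_KO in control cells for ABCG2 (2.98) and ABCC3 (1.25), and was below it for ABCC5 (−0.80) and ABCC9 (−1.11). With etoposide it was higher for ABCC3 (0.61), which was lost without DAXX_KO etoposide replicate 1 (0.44, FDR 0.0695). ABCC3 had a lower response to etoposide in DAXX_KO (−0.74), and ABCC9 a higher one (1.05), which exceeded the interaction of ATRX_KO by 1.30.

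Among organelle and soluble members, ABCB6 had a lower response in DAXX_KO (−1.04) and ATRX_KO (−0.91), and its DAXX_KO effect was higher than that of ATRX_KO in control cells (1.38) and with etoposide (1.22). ABCB8 had a lower response in ATRX_KO (−0.65), where it was −0.36 against 0.29 in WT, with contrasts of 0.90 with etoposide and 1.00 between the interactions, and ABCB9 rose less than in WT (−1.31), with contrasts of 1.09 and 0.91. The DAXX_KO effect on ABCF1 was below that of ATRX_KO in control cells (−0.49). With etoposide ABCE1 fell less in DAXX_KO than in WT (0.41), ABCF1 was called as falling in WT and not in DAXX_KO (0.37), and ABCF2 was called as rising in DAXX_KO and not in WT (0.36). The value of ABCF1 was lost under 3 of 7 other settings and without 7 of 12 libraries (0.31 to 0.39), that of ABCF2 with library totals (FDR 0.134) and without WT control replicate 2, WT etoposide replicate 2 or 3 or DAXX_KO control replicate 1 (0.30 to 0.34), and the contrast of 1.00 for ABCB8 without any 1 of 9 libraries (0.92 to 1.00).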

How the results depend on the processing

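Of 159 called values of the members reported, 122 were lost under no alternative, 33 were lost without some library and 23 under another setting, library totals ending 14 of them. A member that an alternative did not test could not lose its call there, so the 122 include calls that some alternatives left untested. This applies to members removed by the filter of at least 10 counts in every library. The interactions and contrasts had no fit of only the groups compared. With at least 10 counts in every library the called members were 11 for DAXX_KO against WT with etoposide and 9 for etoposide in ATRX_KO, out of 21 and 23 tested members. The other 94 of 96 numbers of called members under another setting were within 1.5 times the main ones. Several of these numbers came from the same fit. Leaving out 1 library gave 16 to 19 and 15 to 18 members for DAXX_KO against WT without and with etoposide, and 10 to 15 and 13 to 16 for ATRX_KO. It gave 17 to 20 and 14 to 17 for etoposide in WT and DAXX_KO, 16 to 19 and 11 to 15 in WT and ATRX_KO of the other series, and 7 to 9 and 6 to 8 for the interactions. The contrasts of the KO lines ranged over 9 to 11, 6 to 10 and 3 to 5. With the replicate block the DAXX_KO count in control cells was 16 (11 higher, 5 lower), and 7 calls were lost and none gained, at FDR 0.0524 to 0.0618. These were ABCF1 and ABCF3 in DAXX_KO controls, ABCF1 in the interaction of the DAXX series, ABCB4 in the response of DAXX_KO, and ABCB8 in the response of ATRX_KO, in the interaction of the ATRX series and in the difference between the interactions. The labels do not say that a replicate number marks a shared culture or day, and deviations of same-numbered libraries correlated between −0.607 and 0.217. The cause of these shifts was not tested. Members below 10 counts were limited by depth.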
